A study of Rattus norvegicus with 4 samples.

Results

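The prefrontal cortex of newborn male rats was compared between 1 library from pups whose dams received bisphenol A (BPA) and 1 library from pups whose dams received vehicle. The comparison was made over the known genes, the transcripts that carry an NCBI Gene ID, and covered 13496 of the 16782 transcripts listed for males and of the 17419 listed in the 4 libraries of the series. Transcripts that carry only an identifier of the sequencing provider, called assembled transcripts here, were not added to any known gene. The animals were Wistar rats (Wistar Furth per the study's methods) of postnatal day 1 per the labels. Dams were dosed every day with 5000 µg of BPA per kg of body weight, from gestational day 1 to birth, and control dams received ethanol in corn oil without BPA. A control female and a BPA female library of the same age were made in the same way and are given beside the male values. The study's methods describe pups from independent litters and state that the meninges were removed at dissection, but whether a library pooled several pups is not stated in the sources used here. With 1 library a side the comparison compares those libraries, not the conditions, and no test was made.

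BPA is a plastic monomer that can bind steroid hormone receptors and estrogen-related receptors, and it reaches the fetus through the placenta. The frontal cortex of a newborn rat holds excitatory neurons that have largely finished migrating, interneurons that are still arriving from the ventral forebrain, radial glia that are turning into astrocytes, and very little myelin. It is wrapped in the meninges, whose fibroblasts make collagen, small proteoglycans, retinoic acid and growth factors, and it borders the olfactory bulb and the striatum. In a dissected tissue such as this, fewer cells of a type and less RNA per cell cannot be told apart.

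Expression is given as FPKM, the fragments mapped to a transcript, scaled by its length and by the size of the library. The log2 ratio is log2((BPA + 0.5)/(control + 0.5)), so that it is negative where the BPA library is lower. Depths recovered from the steps of the FPKM values were 9262000 fragments for the control male and 9191000 for the BPA male library, against 8961000 and 9008000 for the females. From these depths each FPKM was turned into an estimated number of fragments. The intervals given below are exact 95% intervals (Clopper-Pearson) of the FPKM ratio on the log2 scale, without the pseudocount. They cover counting error only. For scarce genes the log2 ratio, which holds the pseudocount, can lie near their edge. The sex given in the labels was checked on sex-linked transcripts. The transcript of Xist, listed under LOC100911498, stood at 0.09 and 0.14 FPKM in the males against 67.34 and 75.79 in the females, and the Y-linked Eif2s3y at 52.77 and 47.18 against 0.01 and 0.07. The Y-linked Ddx3y, at 0.07 FPKM or less in all 4 libraries, and Usp9y, at 0.01 in both males, were too low to tell the sexes apart. The cortical marker Tbr1 was abundant in the control male and the BPA male library, at 61.28 and 69 FPKM.

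Most known genes were nearly equal in the male pair. The median log2 ratio was -0.04 with an SD of 0.32 across genes, and 55.7% of genes lay below 0. A log2 ratio of at least 1 in either direction, called past the fold here, was reached by 201 genes, which is 1.49% of those compared. Of these, 46 (0.341%) were higher and 155 (1.15%) were lower in the BPA male. At a log2 ratio of 0.5 there were 320 higher and 996 lower genes. The excess of lower genes was also present in the female pair, with 34 higher and 295 lower. Female against male libraries of the same treatment put 80 genes past the fold for the controls (0.614% of 13033) and 104 for BPA (0.798%).

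How often a gene lay past the fold followed its level. Between a mean FPKM of 1 and 2 the share was 5.21% in the male pair against 2.04% between the 2 control libraries, and between 2 and 5 it was 2.43% against 0.524%. From 10 to 50 FPKM it was 0.483% against 0.0864%, and at 50 FPKM or more 0.127% against 0. Below 0.1 FPKM the pseudocount of 0.5 leaves no gene past the fold. Among genes with a mean of at least 1 FPKM in the pair, transcripts shorter than 500 bases stood apart, with 12.9% of 101 past the fold in the male pair and 10.1% between the controls. In both of these pairs the share was thus highest for scarce and short genes, and the genes described first below have a mean of at least 2 FPKM.

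**Figure D1:**
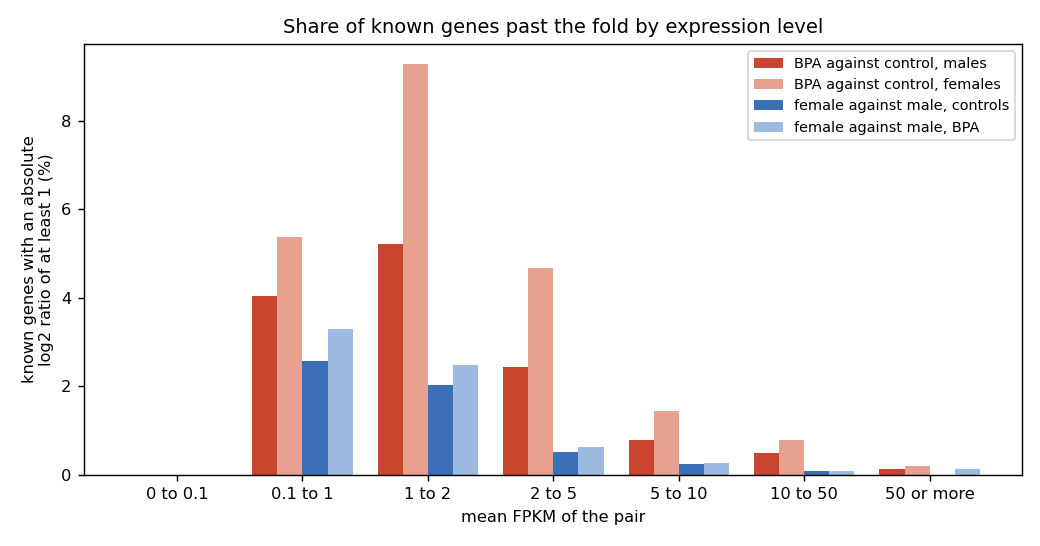
Share of known genes whose log2 ratio is 1 or more in either direction (y axis, percent) in bins of the mean FPKM of the pair (x axis), with 1 bar for each of 4 library pairs. From 0.1 to 50 FPKM the BPA against control pairs (red) stand above the female against male pairs of the same treatment (blue). In the male pair the share falls from 5.21% in the bin of 1 to 2 FPKM to 0.127% at 50 FPKM or more.

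Of the genes with a mean of at least 2 FPKM, 69 were lower past the fold in the BPA male library. The lowest ratios belonged to proteases of mast cells, the granule-bearing immune cells found in the meninges. Mcpt1l1, a mast cell protease 1-like gene, stood at 6.12 FPKM in the control male and 0.88 in the BPA male, and at 4.97 and 0.45 in the control and BPA females. Its log2 ratio was -2.26 (interval -4.08 to -1.72) in males and -2.53 in females. The tryptase gene Tpsab1 was at 4.83 and 0.65 FPKM in males and at 2.01 and 0.29 in females, with a male log2 ratio of -2.21. For both proteases the BPA libraries of both sexes lay under both controls.

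Much more abundant was Cdhr1, a cadherin-related gene of olfactory bulb output neurons and photoreceptors, at 41.1 and 10.77 FPKM in the control and BPA males. Its log2 ratio of -1.88 had an interval of -2.09 to -1.78, and the female ratio was -2.20. Igf2, an imprinted growth factor that meninges and vessels make, was at 61.22 and 18.69 FPKM in males and at 61.1 and 14.13 in females, a male log2 ratio of -1.69. The control libraries of the 2 sexes were nearly the same for Igf2, and both BPA libraries were far under them.

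Junction and barrier genes followed. The connexins Gjb2 and Gjb6, which form gap junctions between leptomeningeal cells, had male log2 ratios of -1.58 and -1.38. Cldn11, a tight junction claudin of the arachnoid barrier and of myelin, was at 17.24 and 6.25 FPKM in the control and BPA males and at 18.13 and 3.56 in the females. Frzb, a secreted antagonist of Wnt signals, was at 4.76 and 1.45 FPKM in males and at 4.55 and 0.78 in females. Nrp2, a semaphorin receptor that guides axons and migrating neurons, was at 23.04 and 8.71 FPKM in males and at 26.21 and 11.78 in females, a male log2 ratio of -1.35 with an interval of -1.62 to -1.20. Each of these genes was lower in the BPA library of either sex.

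Among the 15 lowest genes were also Spp1, which encodes the matrix protein osteopontin (log2 ratio -1.48), Fxyd1, a regulator of the sodium pump (-1.38), Mgp, which encodes matrix Gla protein (-1.34), Cd302 (-1.33) and Atp6ap1l (-1.30). The exception among the 15 was the histone gene Hist1h2ail1, at 3.68 and 0.62 FPKM in the control and BPA males but at 1.59 and 1.94 in the females. Its reads can be shared with near-identical histone genes, so its value is uncertain. The other 14 also lay below 0 in females, 11 of them past the fold.

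Only 12 genes with a mean of at least 2 FPKM were higher past the fold, and 4 of these were also past it in females. Rxrg, a retinoid X receptor of striatal projection neurons, was at 6.11 FPKM in the control male and 24.56 in the BPA male, and at 8 and 26.17 in the females. Its log2 ratio was 1.92 (interval 1.71 to 2.33) in males and 1.65 in females, so that the BPA libraries of both sexes lay above both controls. Ebf1, a transcription factor of striatal neurons and vessel-associated cells, was at 1.59 and 3.99 FPKM in males and at 1.53 and 3.96 in females, a male log2 ratio of 1.10 with an interval of 0.94 to 1.73. The 2 other genes past the fold in both sexes encode abundant proteins with near-identical copies. Ftl1, which encodes the light chain of the iron store ferritin, was at 24.12 and 53.94 FPKM in males, while an assembled transcript with the same protein accession was at 890.58 and 1066.59. Rpl13 encodes a ribosomal protein and was at 3.1 and 10.54 FPKM in males.

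Several of the highest male ratios were smaller or of the other sign in females. Rpl22, another ribosomal protein gene, was at the lowest listed value of 0.01 FPKM in the control male and at 5.82 in the BPA male, which correspond to 0 and 22 estimated fragments, whereas the females were at 3.08 and 1.67. Rps28 was at 12.49 and 37.65 FPKM in the males and at 38.06 and 25.3 in the females, so the control male was the library that stood low. LOC100134871, a hemoglobin beta-like gene, was at 18.03 and 82.29 FPKM in males and at 21.51 and 33.11 in females. An assembled transcript sharing its protein was at 5.53 and 9.11 FPKM in the males. Ratios of ribosomal, hemoglobin and histone genes are uncertain where reads fit several copies. Msantd1, Aurkc, Nme3, Llph and Ier5l made up the rest of the 12, with male log2 ratios of 1.58, 1.13, 1.07, 1.06 and 1.04 and female ones of 0.27, 0.26, 0.21, 0.18 and -0.29.

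**Figure D2:**
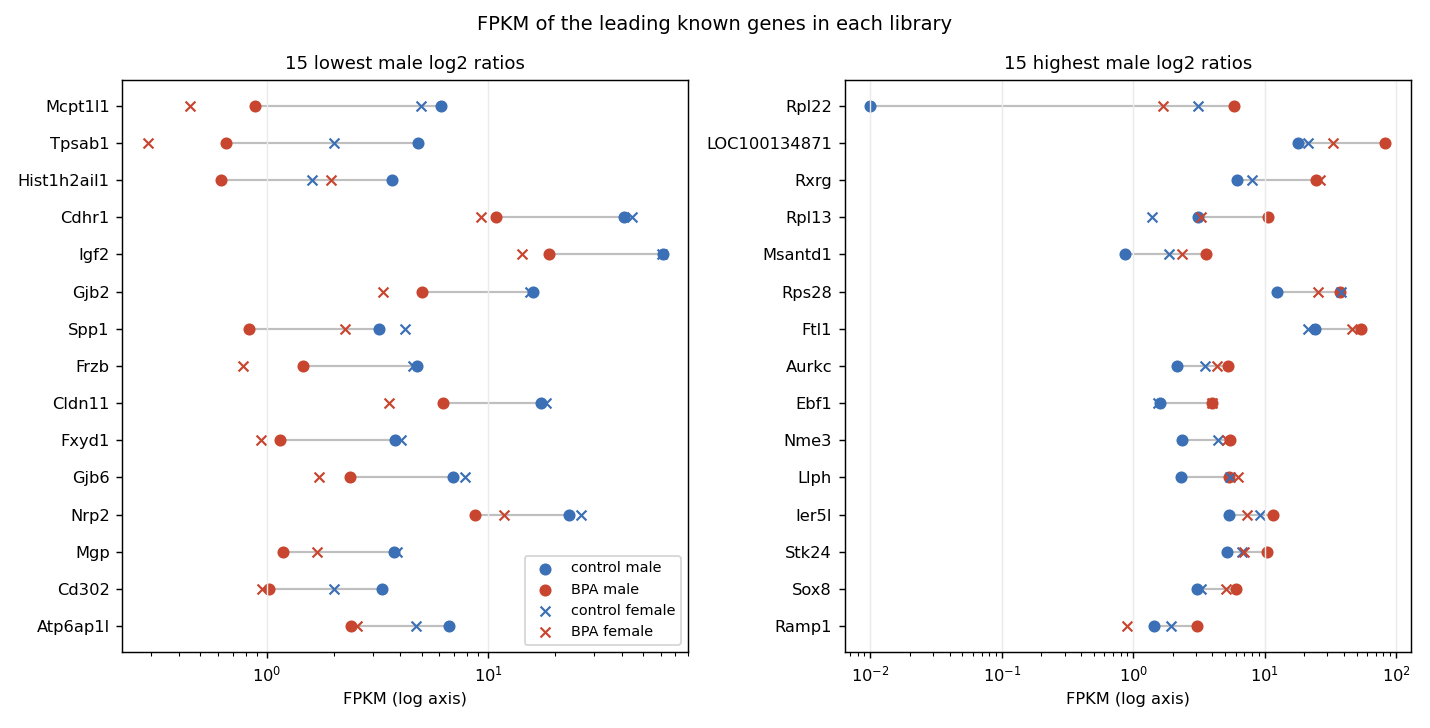
FPKM (x axis, log scale) of the 15 known genes with the lowest and the 15 with the highest male log2 ratio among those with a mean of at least 2 FPKM, with circles for male and crosses for female libraries, control in blue and BPA in red. For 14 of the 15 lowest genes the BPA female value also lies under the control female value (Hist1h2ail1 is the exception), and of the highest 15 the female values lie in the male order for 11.

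Genes of the meninges were the cell-type list with the lowest ratios. Of 41 listed genes of meningeal fibroblasts, 37 had a mean of at least 1 FPKM in the male pair, and all 37 of these were lower in the BPA male. A log2 ratio of -1 or less was reached by 19 of the 37, against 0.924% of the 10609 known genes that passed the same filter. At -0.5 or less lay 30 of the 37, against 5.98% of all. Without the filter, 20 of the 41 were lower past the fold and 1 was higher. Their median log2 ratio was -1.01 in males and -1.51 in females, beside medians of -0.04 and -0.05 for all genes with a mean of at least 1 FPKM. The defining markers were all well detected. Col1a1, a chain of fibrillar collagen I, was at 35.91 and 14.95 FPKM in the control and BPA males, Dcn (decorin) at 22.33 and 9.66, Lum (lumican) at 12.31 and 5.35, and the transcription factor Foxc1, which is needed for meningeal development, at 3.09 and 1.72. Summed over the list, 726.54 FPKM in the control male stood against 352.38 in the BPA male, and 919.64 against 264.62 in the females. The libraries of 1 treatment also differed between the sexes on this list, with a median female against male log2 ratio of 0.24 for the controls and -0.28 for BPA.

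Not every member was low. The highest ratios of the list belonged to Foxp2 (-0.07), Pdgfra (-0.18) and Zic1 (-0.24), which neurons or glial precursors also express. The 4 solute carriers of the list, genes of the arachnoid barrier, lay on both sides of its median. The organic anion carrier Slc22a6 was at 22.02 and 9.26 FPKM in the control and BPA males and at 25.21 and 8.15 in the females, and the GABA and betaine carrier Slc6a13 was at 12.54 and 5.28 in males and at 18.18 and 4.54 in females. Slc13a4, a sulfate carrier, and Slc22a8, an organic anion carrier, had male log2 ratios of -0.85 and -0.64, nearer to 0 than the median. The study describes the meninges as removed, yet the defining markers were present in each library, and how far the ratios follow the amount of meningeal tissue in a library was not tested.

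Cells that lie in or near the meninges varied. Of 17 listed genes of border macrophages, the macrophages of meninges and perivascular spaces, 5 passed the filter, and 4 of these were at -0.5 or less, against 5.98% of all known genes that passed, with a list median of -0.76 (females -1.24). Lyve1, a hyaluronan receptor, was at 4.62 and 1.73 FPKM in the control and BPA males, and Mrc1, the mannose receptor, was at 2.99 and 1.73. Of 12 listed mast cell genes 7 passed, with a median of -0.64 in males and -0.69 in females. Lower past the fold were 3, against 0.924% of all known genes that passed. Each of the 3 was under 1 FPKM in the BPA male and passed the filter through the control male alone, so no conclusion is drawn from this count. Besides Tpsab1, the chymase Cma1 (3.41 and 0.36 FPKM) and the carboxypeptidase Cpa3 (3.21 and 0.55) made up the 3, but the stem cell factor receptor Kit, which neurons also express, was at 17.35 and 20.44 and the tryptase Tpsb2 at 1.04 and 1.15, with 0.64 and 0.21 in the females. Microglia genes stayed closer to the rest, with 17 of 25 listed genes passing, a median of -0.22, and no gene past the fold. The female median was -0.46. P2ry12, a purine receptor of resting microglia, was at 2.58 and 2.98 FPKM in males and Aif1 at 9.14 and 7.3. Tyrobp, an adaptor of microglial receptors, was at 2 and 3.58 FPKM in males but at 8.05 and 2.06 in females, so that the control female was far above the other libraries.

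Vessel wall genes had medians nearer to 0 than the meningeal list. Of the 31 endothelial genes that passed, of 33 listed, 24 lay below 0 and 5 at -0.5 or less, and none was past the fold in males (median -0.25, females -0.53). Of all 10609 known genes that passed, 5988 lay below 0 and 5.98% at -0.5 or less. The lowest were Slco1a2 (-0.90), Tek (-0.79) and Abcb1 (-0.64), a carrier, a receptor kinase and an efflux pump of the blood-brain barrier. The defining markers Cldn5 (60.49 and 55.8 FPKM), Pecam1 (-0.27), Flt1 (-0.29) and Cdh5 (-0.47) were nearer to 0. Pericyte and smooth muscle genes had a median of -0.06 over 15 of 22, with the contractile actin Acta2 at 5.12 and 2.42 FPKM and the pericyte receptor Pdgfrb at 8.73 and 9. Red cell genes lay in both directions, with a median of -0.07 over 11 of 20. The beta globin Hbb was at 473.14 and 450.29 FPKM in the control and BPA males, and Hbb-b1 and LOC689064 had log2 ratios of -1.09 and -0.99, whereas the hemoglobin beta-like LOC100134871 had 2.16. Genes of choroid plexus and ependyma were mostly scarce. The choroid markers Folr1 and Kl were at 0.01 FPKM in the control male, and 6 of 26 choroid genes and 5 of 14 ependymal genes passed, with medians of -0.36 and -0.07. Above 0 lay 1 choroid gene, at 0.58, and 2 ependymal genes, and the ependymal marker Foxj1 was at 1.11 and 1.03 FPKM. In each list 1 gene was lower past the fold in both sexes, against 0.924% of all known genes that passed in males. Wdr86 of the choroid list was at 2.17 and 0.41 FPKM in the control and BPA males and at 3.44 and 0.56 in the females, and Rarres2 of the ependymal list, which encodes the secreted protein chemerin, at 5.82 and 2.51 in males and at 7.31 and 2.58 in females.

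Genes of astrocytes and radial glia had a median below that of all genes. Of the 41 listed, which all passed, 31 lay below 0 (5988 of all 10609 that passed) and 6 at -0.5 or less (5.98% of all), with a median of -0.17 in males and -0.38 in females. Gjb6 alone was past the fold, and it is on the meningeal list too. The water channel Aqp4 was at 14.64 and 9.18 FPKM in the control and BPA males, and the lipid carrier Apoe at 218.08 and 139.9. Apoe was also lower in the BPA female (261.94 and 102.38 FPKM). Radial glial genes of high level differed less, with Fabp7, a brain lipid-binding protein, at 532.55 and 457.14 FPKM and the glutamate carrier Slc1a3 at 112.23 and 90.99. The Notch target Hes5 had the highest ratio of the list, 0.59, at only 1.09 and 1.9 FPKM, and lay at -0.74 in females. Oligodendrocyte lineage genes had a median of -0.19 over 16 of 23, and of -0.14 without Cldn11 and Pdgfra, which the meningeal list also holds. The lineage factor Sox10 was at 4.59 and 5.91 FPKM and Olig2 at 10.57 and 12.25.

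Excitatory neuron genes were near equal. Of the 18 upper layer genes, which all passed, none was past the fold, and the median was 0.05 (females 0.15). Pou3f1, a POU-domain factor of upper layer neurons, had the highest ratio at 13.39 and 22.76 FPKM, or 0.74, followed by Lhx2 at 0.44, and the female ratios were 0.27 and 0.53. Deep layer and subplate genes had a median of 0.09 over 22 of 23 (females 0.05). Their markers Bcl11b, Fezf2 and Tbr1, which specify projection neurons to the spinal cord and thalamus, had log2 ratios of 0.07, 0.19 and 0.17. Foxp1 (0.51) and Syt6 (0.49) were the highest of the deep layer list and stood at 0.43 and 0.37 in females. Intermediate progenitor genes had a median of -0.04 over 11 of 12 but were more spread. Of the 11, 3 lay at 0.5 or more, against 1.54% of all known genes that passed, and none at -0.5 or less.

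Interneuron genes had a median of 0.04 over 27 of 28 genes, and 3 were at -0.5 or less, against 5.98% of all known genes that passed. Calb2, which encodes the calcium buffer calretinin, was at 40.02 and 17.17 FPKM in the control and BPA males and at 33.96 and 14.41 in the females, so that its log2 ratios of -1.20 and -1.21 were alike in the sexes. Sp8, a factor of interneurons from the lateral and caudal ganglionic eminences, was at 5.88 and 3.15 FPKM in males and at 6.51 and 3.54 in females. The GABA-synthesizing enzymes were unequal, with Gad1 at 25.94 and 19.51 and Gad2 at 15.21 and 16.06. Somatostatin (Sst) was at 122.45 and 91.78 FPKM, and Lhx6, which marks interneurons of the medial ganglionic eminence, at 14.31 and 16.37. The serotonin receptor Htr3a had the highest ratio of this list, 0.68 in males and 0.58 in females. Calb2 also marks Cajal-Retzius cells, whose other genes had ratios from -0.37 (Nhlh2) to 0.39 (Cxcr4), with reelin (Reln) at 31.16 and 36.96 FPKM.

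Genes of striatal projection neurons were the cell-type list with the highest median. Of 34 listed, 30 passed, of which 23 lay above 0, against 4598 of all 10609 known genes that passed. The median was 0.15 in males and 0.27 in females. Past the fold were Rxrg and Ebf1, against 0.245% of all genes with a mean of at least 1 FPKM, and 8 reached 0.5, against 1.54%. The dopamine receptor Drd2 was at 4.25 and 7.93 FPKM in the control and BPA males and at 3.96 and 7.51 in the females, and Drd1 was at 2.7 and 4.15 in males and at 3.42 and 4.27 in females. The opioid precursor Penk was at 13.92 and 23.45 FPKM in males and at 14.45 and 21.51 in females. Adora2a, an adenosine receptor of neurons that express Drd2, was at 6.52 and 9.34 in males, and Ppp1r1b, the dopamine-regulated phosphatase inhibitor, at 24.12 and 31.97. For each of these 5 genes the BPA male was above both control libraries. Not all of the list followed, and Adcy5, the main adenylyl cyclase of striatum, was at 18.04 and 14.89 FPKM. The striatum lies under the frontal cortex, and the share of it in each dissection was not tested.

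Genes of other neighbouring regions included several that were lower. Besides Cdhr1, the output neurons of the olfactory bulb are marked by Tbx21, which was at 1.74 FPKM in the control male and at 0.01 in the BPA male and did not pass the filter. The median of the list was 0.01 over 10 of 17, and it also holds genes that cortex expresses, such as Lhx2 (0.44) and Uchl1 (0.18). Of the olfactory bulb interneuron genes, Synpr, which encodes a synaptic vesicle protein, was at 60.35 and 32.95 FPKM in males and at 58.23 and 31.92 in females, a log2 ratio of -0.86 in each sex, and the list median was -0.18 over 14 of 19. Th, the dopamine-synthesizing enzyme of bulb interneurons, was at 0.89 and 0.25 FPKM. Thalamic and diencephalic genes had a median of -0.24 over 11 of 16 in males and -0.87 in females. Without Zic1, which the meningeal list also holds, 10 genes had a median of -0.42 in males and -0.90 in females. The glutamate carrier Slc17a6 was at 12.33 and 7.62 FPKM in the males and Zic2 at 9.55 and 4.98. Septal genes had a median of -0.31 over 8 of 15, and hippocampal genes of 0.04 over 14 of 16, with none at 0.5 or more in either direction. Genes of olfactory ensheathing cells had a median of -0.21 over 11 of 17, and skin, muscle and bone genes of -0.09 over 6 of 23.

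**Figure D3:**
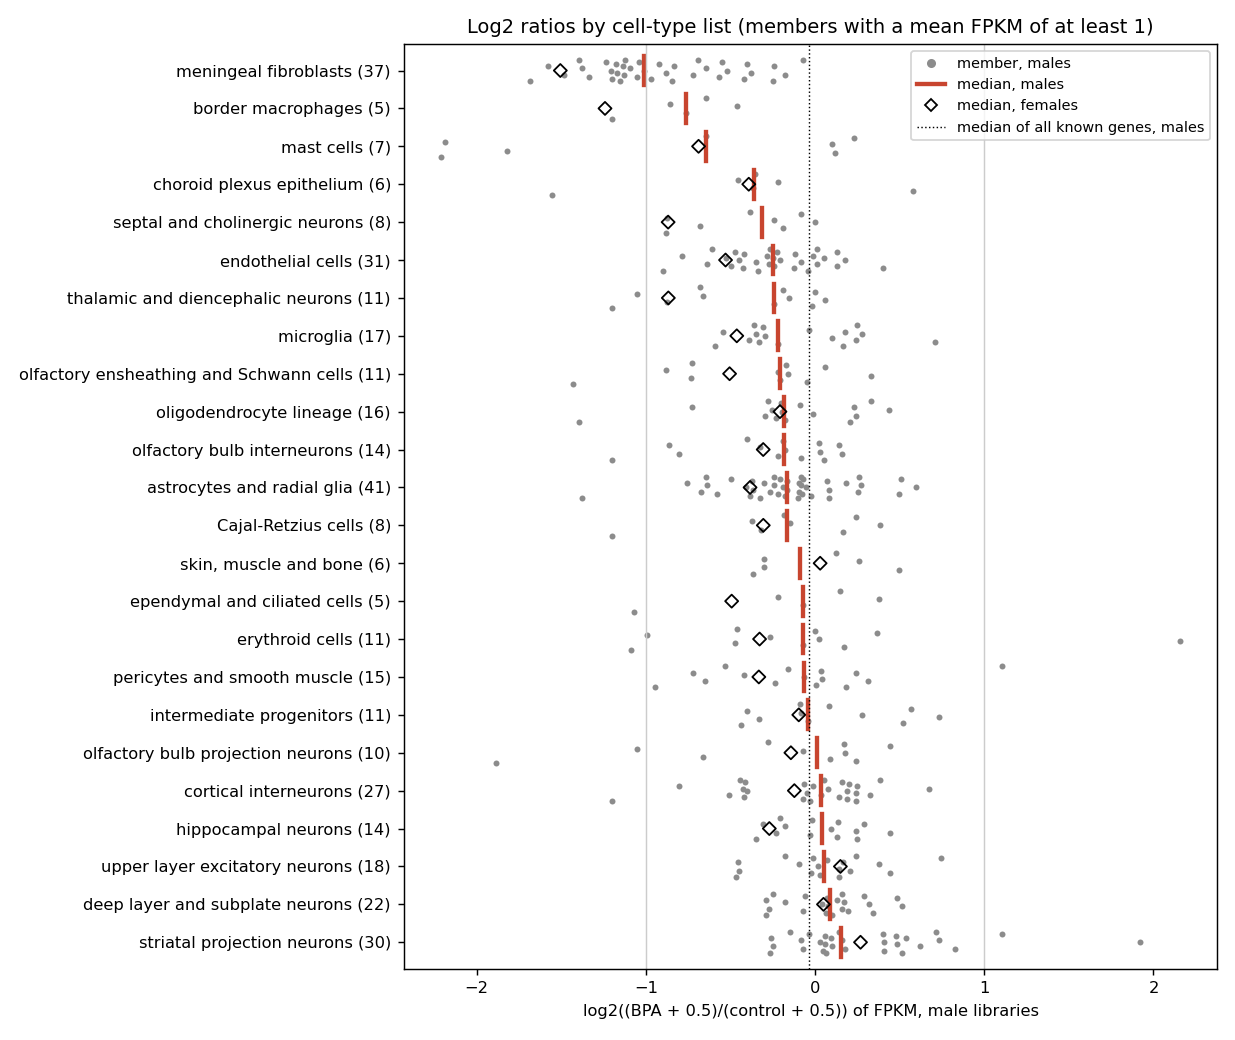
Male log2 ratios (x axis) of the members of each cell-type list with a mean of at least 1 FPKM, 1 grey point a gene, with the male median as a red bar, the female median as an open diamond and the number of members in brackets. Meningeal fibroblast genes lie at the low end, with a median of -1.01 and every point below 0, and striatal projection neuron genes at the high end, with a median of 0.15.

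The gene classes with the lowest medians were 2 of the extracellular matrix, small proteoglycans and collagen chains. Of 12 small leucine-rich proteoglycans, which organize collagen fibrils, 7 passed and 6 were lower past the fold, against 0.924% of all known genes that passed, with a median of -1.05 in males and -1.70 in females. Biglycan (Bgn), osteoglycin (Ogn) and Prelp were at 24.48 and 10.87, 17.92 and 8.37, and 7.26 and 3.38 FPKM in the control and BPA males. The meningeal list also holds 5 of the 7. Collagen chains had a median of -0.81 over 15 of 27, and 5 were lower past the fold. Without Col1a1, Col1a2 and Col3a1, which the meningeal list holds, 12 chains had a median of -0.64 in males and -0.88 in females. Col18a1, a chain of vessel and epithelial basement membranes, was at 18.6 and 8.81 FPKM, whereas the main basement membrane chain Col4a1 was at 38.25 and 31.96. Other matrix glycoproteins had a median of -0.35 over 37 of 46 (females -0.61), with 34 below 0 against 5988 of all 10609. Fbln5, an elastic fibre protein, was at 2.01 and 0.56 FPKM, and Agrn, which encodes the basement membrane and synaptic proteoglycan agrin, at 79.58 and 82.76.

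Growth factor genes gave a few large differences in lists that were otherwise near equal. In the insulin-like growth factor system, 15 of 18 genes passed with a median of -0.09, and 3 were lower past the fold, against 0.924% of all known genes that passed. Besides Igf2 these were Igf1, at 7.47 and 3.37 FPKM in the control and BPA males, and the binding protein Igfbp5, at 26.32 and 12.84, and their female ratios were -0.85 and -0.89. The receptor Igf1r was at 5.49 and 4.11. Among imprinted genes, which are expressed from the maternal or the paternal copy, Igf2 and Dcn were past the fold and the growth-restraining Cdkn1c was at 15.07 and 8.85 FPKM, while the median of the 30 that passed, of 34, was -0.10. H19, the noncoding neighbour of Igf2, was at 4.22 and 2.78. Of TGF-beta and BMP genes, Bmp7 was lower past the fold (6.98 and 3.24 FPKM in males, 8.06 and 2.8 in females) and the median was -0.10 over 42 of 46. Wnt pathway genes had a median of -0.05 over 33 of 51, with Frzb the gene past the fold. Neurotrophin genes had a median of -0.07 over 10 of 17, with the receptor Ntrk2 at 66.99 and 61.26 FPKM. Fibroblast growth factor genes had a median of 0.05 over 13 of 24.

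Cholesterol synthesis genes shifted together by a small amount. Of 27 listed, 26 passed, of which 23 lay below 0, 5 at -0.5 or less and 1 at -1 or less, with a median of -0.33 in males and -0.39 in females. Of all 10609 known genes that passed, 5988 lay below 0, 5.98% at -0.5 or less and 0.924% at -1 or less. Insig1, which holds the sterol-sensing complex in the endoplasmic reticulum, was at 50.92 and 31.72 FPKM in the control and BPA males and at 50.87 and 29.17 in the females, a male log2 ratio of -0.67 with an interval of -0.82 to -0.54. Idi1, an isomerase of the mevalonate branch, was at 54.71 and 38.9, and Hmgcs1, which makes HMG-CoA at the start of the pathway, at 362.01 and 277.45. The transcription factor of the pathway itself, Srebf2, was at 38.14 and 40.77 FPKM and had the highest ratio of the list, 0.09. Among the 5 genes at -0.5 or less were the cholesterol carrier Stard4, Insig1 and the late enzymes Hsd17b7 and Ebp.

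The 250 bases before the start of 3 of these genes are shown because they belong to 1 pathway and were lower together in both sexes. The sequences are from RefSeq on the assembly GRCr8, a later build than the one used for mapping, and run 5′ to 3′ on the strand of the gene. They lie at chr4:8057770-8058019 on the minus strand (Insig1), chr2:53382054-53382303 on the plus strand (Hmgcs1) and chr17:66547525-66547774 on the minus strand (Idi1). Capitals mark matches on either strand to CCAAT (the CCAAT box), GGGCGG (the GC box) and TATAAA (the TATA box).
Insig1: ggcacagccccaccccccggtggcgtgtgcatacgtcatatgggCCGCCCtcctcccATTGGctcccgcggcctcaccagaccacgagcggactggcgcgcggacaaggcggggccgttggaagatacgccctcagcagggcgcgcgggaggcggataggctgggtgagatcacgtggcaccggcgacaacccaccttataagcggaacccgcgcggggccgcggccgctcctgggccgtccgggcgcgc
Hmgcs1: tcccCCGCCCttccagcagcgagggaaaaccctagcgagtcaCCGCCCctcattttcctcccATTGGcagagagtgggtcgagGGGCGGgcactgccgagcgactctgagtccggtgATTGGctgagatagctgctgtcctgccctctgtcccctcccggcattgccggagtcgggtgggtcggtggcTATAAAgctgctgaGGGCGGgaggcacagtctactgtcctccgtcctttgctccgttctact
Idi1: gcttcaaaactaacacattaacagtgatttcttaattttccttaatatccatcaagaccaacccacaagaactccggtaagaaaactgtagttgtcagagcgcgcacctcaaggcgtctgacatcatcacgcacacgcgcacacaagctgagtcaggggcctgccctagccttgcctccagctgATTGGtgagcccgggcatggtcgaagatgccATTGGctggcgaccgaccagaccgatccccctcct

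Each of the 3 promoters held CCAAT, read on the opposite strand. Its first base as printed lay 193 bases before the start in Insig1, 188 and 133 bases in Hmgcs1, and 66 and 35 bases in Idi1. Of the 19 cholesterol genes found in the promoter table, 15 (78.9%) held CCAAT and 17 (89.5%) held GGGCGG within 250 bases, against 35.5% and 60.4% of the 8685 promoters of known genes with a mean of at least 1 FPKM. Over all 27457 promoters of the table the shares were 34.3% and 32.4%. The sterol regulatory element TCACNCCAC, to which the SREBP factors bind, was in none of the 19 windows and in 0.944% of the same 8685 promoters of known genes. The nuclear receptor hexamer AGGTCA was in 2 of the 19, and in 0 of 25 promoters of striatal genes, against 9.58% of those 8685. None of the 5 motifs contains another, and matches are descriptions of these windows.

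**Figure D4:**
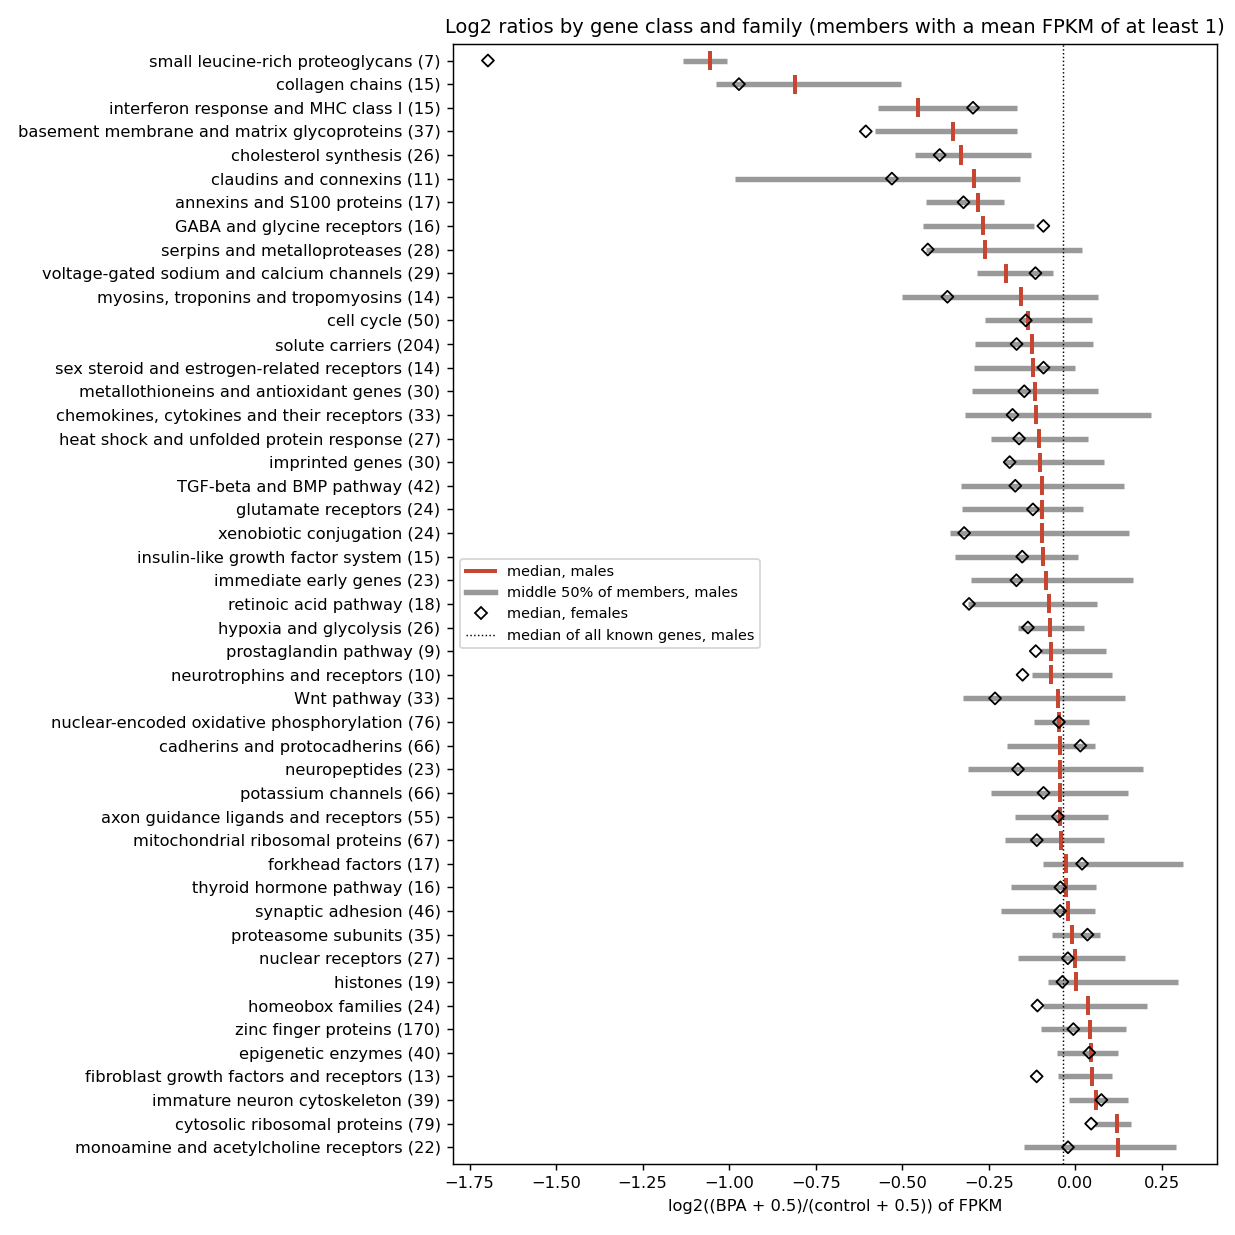
Median male log2 ratio (red bar), middle 50% of members (grey bar) and median female log2 ratio (open diamond) of each gene class and family, over members with a mean of at least 1 FPKM, whose number is in brackets. Small leucine-rich proteoglycans and collagen chains lie lowest, with male medians of -1.05 and -0.81, and most classes lie near the dotted median of all known genes, at -0.04.

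Hormone-related genes, the classes closest to the known binding partners of BPA, were near equal. Of 25 genes of sex steroid and estrogen-related receptors and their enzymes and coregulators, 14 passed, none was past the fold and 1 was at -0.5 or less, against 5.98% of all known genes that passed, with a median of -0.12. The estrogen-related receptor Esrrg was at 3.63 and 2.6 FPKM in the control and BPA males and at 3.15 and 3.38 in the females, and Esrra at 7.14 and 9.05 in males. The estrogen receptor Esr1 was scarce, at 0.64 and 0.48, and did not pass the filter. The steroid dehydrogenase Hsd17b4 had the lowest ratio, -0.55. Thyroid hormone genes had a median of -0.03 over 16 of 20, with the receptor Thra at 363.67 and 370.43 FPKM and the carrier Slco1c1 of vessels and astrocytes at 28.91 and 19.96. Across the nuclear receptor family, 27 of 37 genes passed, the median was 0.00 and Rxrg alone was past the fold.

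The retinoic acid pathway held values in both directions. Aldh1a2, the enzyme with which meninges make retinoic acid, was at 12.03 and 6.11 FPKM in the control and BPA males and at 16.36 and 3.96 in the females. The receptors Rarb and Rxrg were higher, Rarb at 6.16 and 10.43 FPKM in males and at 7.02 and 9.68 in females. The median over the 18 genes that passed, of 21, was -0.08. Prostaglandin genes had a median of -0.07 over 9 of 20, with 2 at -0.5 or less against 5.98% of all known genes that passed. These were Ptgds, the prostaglandin D synthase of the leptomeninges, with a male log2 ratio of -0.97 and a female one of -2.25, and Hpgd, a prostaglandin-degrading dehydrogenase, with -0.84 and -0.11.

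Genes that handle foreign compounds and oxidants included some low members. Of 24 conjugation and transport genes that passed, of 32, 5 lay at -0.5 or less, against 5.98% of all known genes that passed, and none at 0.5 or more. Gsta1, a glutathione transferase, was lower past the fold at 3.29 and 0.68 FPKM, against 0.924% of all known genes that passed. Cyp1b1, an enzyme that hydroxylates estradiol, was at 7.03 and 3.81 in males and at 6.73 and 2.95 in females. The abundant transferase Gstm1 was at 77.57 and 90.48. The aryl hydrocarbon receptor Ahr was at 1.47 and 1.98 FPKM, and the list median was -0.10. Of 30 metallothionein and antioxidant genes, which all passed, Sod3 (2.85 and 0.98 FPKM) and the cystine exchanger Slc7a11 (12.23 and 5.76) were lower past the fold. The share of all known genes that passed was 0.924%. At -0.5 or less lay 4 of the 30 and at 0.5 or more 1, against 5.98% and 1.54% of all. Gsta1 and Sod3 were under 1 FPKM in the BPA male and passed the filter through the control male alone. Hmox1, the inducible heme oxygenase, was at 5.69 and 2.69 in males and at 5.59 and 2.89 in females. Unfolded protein response genes had a median of -0.10 over 27 of 30, with the chaperones Hspa5 at 123.17 and 90.04 FPKM and Hsp90b1 at 133.56 and 102.71. Their female ratios were -0.40 and -0.39. Hypoxia and glycolysis genes (median -0.07 over 26 of 29) and immediate early genes (-0.09 over 23 of 33) had no passing member past the fold, and the activity gene Fos was at 1.49 and 0.57 FPKM.

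Immune signalling genes were scarce. Of 35 interferon-response and MHC class I genes, 15 passed, with a median of -0.45 in males and -0.30 in females, and 5 were at -0.5 or less, against 5.98% of all known genes that passed. Ifitm2, an antiviral membrane protein, was at 18.18 and 9.92 FPKM in males and at 18.6 and 12.84 in females, while Irf9 was at 0.37 and 1.87 in males and so was higher past the fold at a low level. Of 91 chemokine and cytokine genes, 33 passed with a median of -0.11, and Cxcl12, a chemokine that meninges make and that steers Cajal-Retzius cells and interneurons, was at 40.48 and 28.93 FPKM in males and at 39.65 and 16.21 in females. The calcium-binding S100a11 was at 26.76 and 11.01 in males but at 18.89 and 19.29 in females, and S100a10 at 107.29 and 63.75. Annexins and S100 genes as a family had a median of -0.28 over 17 of 21. One member was higher past the fold, S100a8, a neutrophil protein, at 0.01 and 2.19 FPKM in males and at 0.37 in both females.

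Receptors and channels of neurons had medians within 0.3 of 0. GABA and glycine receptor genes had 14 of 16 passing genes below 0, against 5988 of all 10609, with a median of -0.27 in males and -0.09 in females, and the lowest were the subunits Gabrd (1.68 and 0.75 FPKM), Gabrg3 (6.92 and 4.07) and Gabrb1 (3.79 and 2.37). The abundant Gabbr1 was at 155.3 and 159.56. Voltage-gated sodium and calcium channel genes had 24 of 29 below 0 and a median of -0.20 (females -0.12). Glutamate receptor genes had a median of -0.10 over 24 of 26, potassium channels of -0.04 over 66 of 87 and monoamine and acetylcholine receptors of 0.12 over 22 of 38. The nicotinic subunit Chrna3 was at 2.4 and 0.45 FPKM in males, and the potassium channel partner Kcnip3 at 6.98 and 3.01. Neither was past the fold in females, where their log2 ratios were -0.28 and 0.19.

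Peptides and guidance molecules gave single genes. Cartpt, which encodes a feeding-related neuropeptide, was at 6.71 and 2.62 FPKM in the control and BPA males and at 6.26 and 3.5 in the females. The cortistatin gene Cort was at 0.29 and 2.01 in males but at 2.06 and 1.46 in females. The prodynorphin gene Pdyn, also a striatal gene, was at 3.82 and 6.14. The 55 axon guidance genes that passed had a median of -0.04. Nrp2 and Ntng1 were lower past the fold, against 0.924% of all known genes that passed. Ntng1 was under 1 FPKM in the BPA male and passed the filter through the control male alone. Epha4, an ephrin receptor, was at 28.15 and 41.26 FPKM in males and at 29.28 and 45.99 in females. Sema7a, a membrane-bound semaphorin, was at 33.7 and 46.41 in males and at 33.79 and 52.13 in females. Synaptic adhesion genes had no member past the fold among 46, with a median of -0.02. Among cadherins and protocadherins Cdhr1 alone was past the fold, and the median over 66 of 75 was -0.04.

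Large housekeeping classes gave narrow distributions. The 76 nuclear-encoded oxidative phosphorylation genes that passed, of 77, had no member at 0.5 or more in either direction and a median of -0.05, and 35 proteasome genes had a median of -0.01. Cytosolic ribosomal protein genes were slightly higher, with 68 of 79 above 0, against 4598 of all 10609 genes that passed, and a median of 0.12 in males and 0.05 in females. Of these, 2 were at -0.5 or less and 4 were higher past the fold (Rpl22, Rpl17, Rpl13 and Rps28), against 5.98% and 0.245% of all genes that passed. Rpl17 was at 0.01 and 2.34 FPKM in males and at 2.16 and 2.01 in females, so that it, like Rpl22, was at the lowest listed value in the control male library alone. Both passed the filter through the BPA male alone, so no conclusion is drawn from the count of 4. Mitochondrial ribosomal protein genes had a median of -0.04 over 67. Genes of the cytoskeleton of immature neurons lay above 0 in 27 of 39, with a median of 0.06 (females 0.08), and the tubulin Tubb2b was at 3312.63 and 4137.12 FPKM. Cell cycle genes had a median of -0.14 over 50, with Cdk1 at 9.72 and 6.98 FPKM and Birc5, which encodes survivin, at 4.49 and 7.87. Epigenetic enzymes had none at 0.5 or more in either direction among 40 and a median of 0.05. Zinc finger genes had a median of 0.04 over 170 of 180.

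Solute carriers were the largest class described. Of 204 solute carriers that passed, of 291, 6 were lower past the fold and none higher, against 0.924% and 0.245% of all known genes that passed, with a median of -0.13. Besides Slc22a6, Slc6a13 and Slc7a11 the 6 included the dicarboxylate carrier Slc13a3, at 7.98 and 3.33 FPKM in males and at 10.59 and 2.58 in females. Without the 4 carriers of the meningeal list, Slc22a6 and Slc6a13 among them, 4 of 200 were lower past the fold. Serpins and metalloproteases had a median of -0.26 over 28 of 49, with Serpinh1, the collagen chaperone, at 36.45 and 24.26 FPKM. Histone genes had a median of 0.00 over 19 of 28, homeobox genes of 0.04 over 24 of 55, and claudins and connexins of -0.29 over 11 of 25, or of -0.23 over 8 without the 3 that the meningeal list holds. Myosins, troponins and tropomyosins had a median of -0.16 over 14 of 28. Few keratins (2 of 19) and few olfactory and vomeronasal receptors (2 of 133) passed. One of the latter, listed as Vom1r90, was nevertheless at 116.59 and 119.25 FPKM in the control and BPA males and at 107.59 and 118.42 in the females.

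Of 15 genes picked from those that the study names, autism candidates and transcription factors among them, 9 were among the known genes of the male libraries and 7 passed the filter. Ntng1, a netrin-G protein that shapes axon and synapse contacts, was at 2.42 FPKM in the control male and 0.91 in the BPA male, and at 2.18 and 1.09 in the females, a male log2 ratio of -1.05 with an interval of -1.93 to -0.90. The other 6 that passed had log2 ratios between -0.41, for the estrogen-related receptor Esrrg, and 0.06, for Yy1. Lnp, which encodes the endoplasmic reticulum protein lunapark, was at 19.47 and 17.34 FPKM in males, Tcf4 at 35.6 and 33.99, Sox5 at 14.48 and 13.85 and Yy1 at 21.05 and 22.04. Pparg, a lipid-sensing receptor, was scarce at 0.12 and 0.06. Auts2, Ankrd11, Dock4, Syne1 and Rora are not analysed here.

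The female pair allowed the male ratios to be set beside values from libraries that the male ratios did not use. Of the 155 genes lower past the fold in males, 150 were listed in females, and 131 of these lay below 0, or 87.3%, against 59.1% of all known genes, and 67 were lower past the fold, or 44.7%, against 2.25%. Of the 46 higher genes, 43 were listed in females, 22 lay above 0 against 5110 of all 13033 known genes, and 6 were higher past the fold, or 14.0% against 0.215%. Among genes with a mean of at least 2 FPKM, 63 of 69 lower genes and 9 of 12 higher genes kept their sign. Across 10483 genes with a mean of at least 1 FPKM, the male and female log2 ratios were correlated at 0.514 by Pearson's measure and at 0.469 by Spearman's, and at a mean of at least 10 FPKM (6018 genes) Pearson's measure was 0.615. These are descriptions across genes, which are not independent replicates, and the male and female pups of a treatment may share litters. Among genes with a mean of at least 2 FPKM in each pair, those that differed most between the sexes were Rpl22, Tyrobp, Rps28, Sult1a1 and Moap1. Sult1a1, a sulfotransferase of phenols, was at 5.1 and 4.11 FPKM in the control and BPA males and at 8.72 and 1.52 in the females, and Moap1, an apoptosis regulator, at 6.77 and 2.69 in males and at 6.47 and 8.74 in females.

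**Figure D5:**
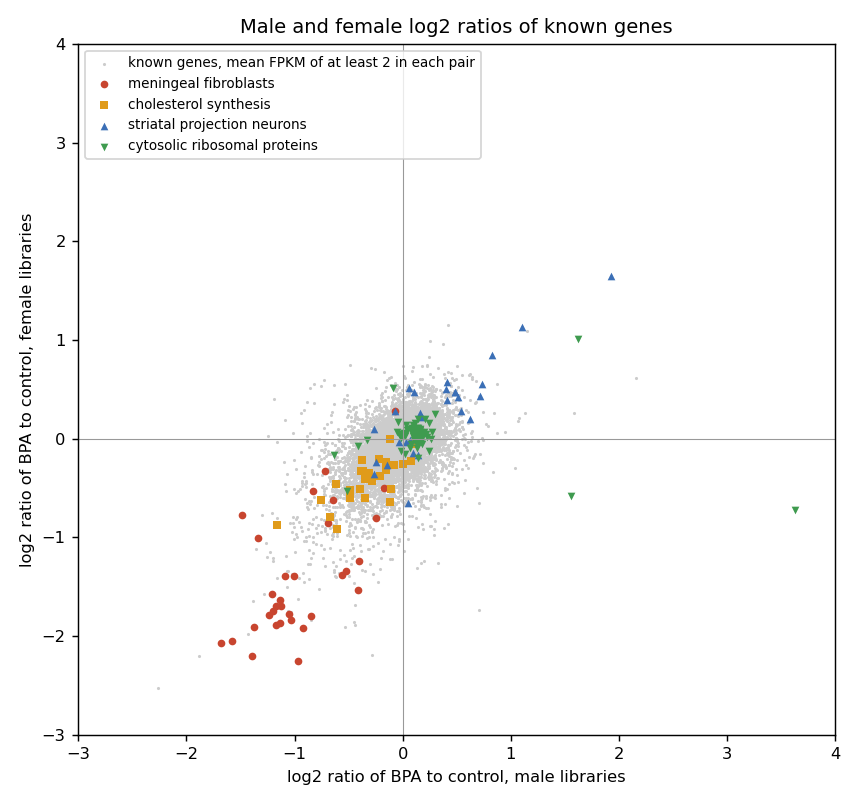
Log2 ratio of BPA to control in males (x axis) against females (y axis) for 9674 known genes with a mean of at least 2 FPKM in each pair (grey), with meningeal fibroblast (red circles), cholesterol synthesis (orange squares), striatal projection neuron (blue upward triangles) and cytosolic ribosomal protein genes (green downward triangles) marked. Meningeal genes extend to the lower left, with medians of -1.01 and -1.51 over members with a mean of at least 1 FPKM in males, and Rxrg lies at the upper right at 1.92 and 1.65, while Rpl22 lies at 3.63 and -0.72.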

How the data were processed

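The authors isolated mRNA with oligo(dT), sequenced it on a HiSeq 4000, mapped clean reads to the rat genome Rnor_6.0 (rn6 per the labels) with Bowtie 2 and estimated expression with RSEM. The processing notes also name HISAT, and versions are not given in the sources used here. The deposited unit is FPKM, as the headers state, with 2 decimals and a lowest value of 0.01. The files hold no counts, and the authors' Poisson comparison on 1 library a side was not repeated.

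Log2 ratios used a pseudocount of 0.5 FPKM. To estimate depth, trial library sizes were used to turn the FPKM of scarce transcripts into fragments, with transcript length shortened by 60 bases, and the size giving the most nearly whole values was kept. Of 456 to 493 such transcripts per library, 77.6% to 81.0% then lay within 0.1 of a whole number. The recovery of depths and of log2 ratios past the fold was tested on simulated data made with the same shortening of 60 bases. The intervals were not tested. The intervals use these estimated fragments without a pseudocount and cover counting error only.

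Members, 76 gene lists and families, and motifs were chosen with earlier results of these data known. Lists were described over members with a mean of at least 1 FPKM in the male pair. Counts and medians were set beside those of all known genes. Some members passed this filter only through the library where they were high, and no conclusion is drawn from counts of such members. Medians without members shared with the meningeal list were added after the values were seen. Genes were named by rule: the 15 lowest and 15 highest male log2 ratios at a mean of at least 2 FPKM, the defining genes and the 3 lowest and 3 highest of each list, 15 genes picked from those the study names, sex-linked genes, and the 5 largest differences between the sexes at a mean of at least 2 FPKM in each pair. Apoe, Cdk1, Col18a1, Col3a1, Ebp, Gstm1, H19, Hmgcs1, Hsd17b7, Idi1, Igf1r, Ogn, Serpinh1, Slc13a4 and Slc22a8 were named after their values were seen. Some genes that the rule names are not reported here. Symbols came from the files, and the RefSeq gene table matched 13923 of 14008 Gene IDs. Promoters came from RefSeq (GRCr8). Alternatives were other pseudocounts, scalings, filters and the female libraries. Python 3.11.15 with numpy 2.4.6, pandas 2.3.3, scipy 1.17.1 and matplotlib 3.10.9 was used.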

Additional observations from a re-analysis of the deposited data

Results flagged for a closer look

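Of the genes with a mean of at least 2 FPKM in each pair, 3 were past the fold in one sex and at least 0.5 away from 0 on the other side in the other sex. The difference between the sexes was not tested, since each ratio rests on 1 library a side. Rpl22 had a male ratio of 3.63 and a female one of -0.72, a difference of 4.35, and was at 0.01 FPKM in the control male. Tyrobp stood at 0.71 in males and -1.74 in females, a difference of 2.45, with the control female above the other 3 libraries. Rps28 stood at 1.55 and -0.58, a difference of 2.13, with the control male under the other 3 libraries.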

How the results depend on the processing

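No paired analysis was possible because each group has 1 library and the labels give no replicate numbers. Of the 201 genes past the fold (46 higher, 155 lower), a pseudocount of 0.1 gave 1002 (332 and 670), 1 gave 85 (19 and 66) and 5 gave 13 (5 and 8). With a mean of at least 1 FPKM there were 124 (26 and 98), with at least 1 FPKM in both libraries 76 (10 and 66), and in females 329 (295 lower). Both scalings, which shift ratios by 0.036 or 0.051, gave 178. An alternative added after seeing the data, leaving out genes that share a protein accession with an assembled transcript, gave 195. Lists with at least 5 passing members and a median of -0.5 or less numbered 5, against 2 with a pseudocount of 5, 2 with no filter and 12 in females. Of the 30 leading genes, 27 lay past the fold, against 9 with a pseudocount of 5 and 15 in females. Of the genes named here that were past the fold in males, the female ratio had the other sign for Hist1h2ail1 (0.22), S100a11 (0.029), Moap1 (0.41), Kcnip3 (0.19), Ier5l (-0.29), Rps28 (-0.58), Cort (-0.39), Rpl17 (-0.084) and Rpl22 (-0.72). The cause of these changes was not tested. Leaving out a library was not possible, and depth limits genes of few fragments most.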
